A study of Homo sapiens with 2 samples.

Results

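The genes that encode the proteins of the cytosolic ribosome were examined in HT29 cells, an established human colon cancer line, after transfection with a *REG4* siRNA. *REG4* codes for a C-type lectin that cells of the gut release. Genes were chosen by symbol, among probe sets annotated with a single gene symbol. The symbol was RPL or RPS followed by a number and at most an A, X, Y or L and a further digit. *RPSA* and the stalk genes *RPLP0*, *RPLP1* and *RPLP2* also qualified, and the RPS6K kinases were left out. The rule found 50 genes, measured by 57 probe sets, among 14812 genes with a name. A probe set joins several short array probes that read the same transcript. Of the 50 genes, 26 belonged to the large and 17 to the small ribosomal subunit. The other 7 were paralogs, which are genes for relatives of these proteins.

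The series held 2 arrays, 1 from cells given a control siRNA (siControl) and 1 from cells given the *REG4* siRNA (siREG4). Both came from the same line, both were transfected, and neither was repeated, so transfection and culture cannot be told apart from the siRNA and no difference below has a test or an error between replicates. For siREG4 the title and source name *REG4*, but the treatment field gives GATA6 as the siRNA target. No probe set was annotated with *REG4* as its single symbol (0 probe sets), and the silencing itself was not analysed here. Probe sets annotated with several symbols were not used. The deposited log2 values are centred per probe set, so that a gene's value in siREG4 mirrors that in siControl, and hold no level of expression. Colon markers could therefore not be read as present or absent, and members could not be ordered by abundance.

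A ribosome consists of a small subunit, which reads the mRNA, and a large subunit, which joins the amino acids. Each subunit takes up a single copy of most of its proteins, and surplus ribosomal protein is degraded in the nucleus. Most mRNAs of these proteins begin with a C and an unbroken run of pyrimidines (C or T in the gene), the 5′ terminal oligopyrimidine tract, through which the kinase complex mTORC1 and the binding protein LARP1 set how well they are translated. In the intestine, as in other tissues that divide constantly, ribosome supply is tied to growth.

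As a group the cytosolic ribosomal protein genes lay at the middle of the array. The median of the siREG4 minus siControl difference was -0.0021 on the log2 scale over the 50 genes, beside a median of 0.0 over all 14812 genes. Of the members, 25 were lower in siREG4 (50.0%, beside 48.7% of all named genes), 24 were higher and 1 was at exactly 0. None passed 1.4-fold (0.49 on the log2 scale), which the study's methods set for decreases and which was applied here to increases as well: 0 were lower, beside 1.67% of all named genes, and 0 were higher, beside 1.51%. The differences spanned -0.25 to 0.14, which is 1.19-fold lower to 1.10-fold higher. Of all named genes, 7.37% lay below the lowest member and 13.4% above the highest.

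**Figure D1:**
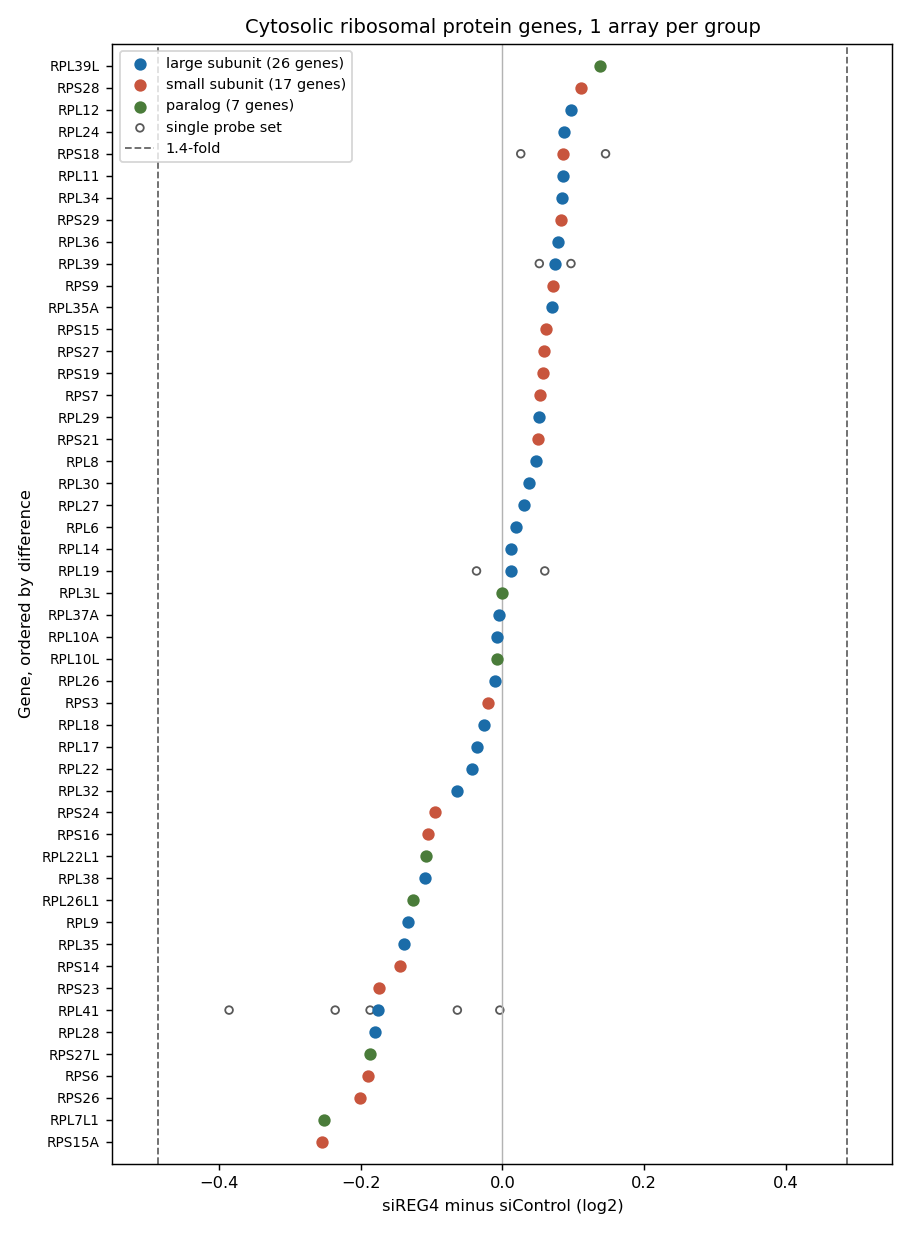
Each filled point is the siREG4 minus siControl difference (log2, horizontal axis) of 1 of the 50 genes (vertical axis, ordered by difference), coloured by subunit or paralog, open circles are the single probe sets of the 4 genes with several, and dashed lines mark 1.4-fold. All filled points lie between -0.25 and 0.14, and RPL41 has the widest span of probe sets, from -0.39 to -0.0037.

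Counted at a step of 0.1, the members were not spread evenly around 0. That step was chosen with earlier results of these data known. *RPL12* (0.096) and *RPS24* (-0.095) lay just inside it, and the counts depend on the step. On the higher side 22 of the 50 genes lay between 0 and 0.1, and 2 lay above 0.1 (4.0%, beside 18.1% of all named genes). On the lower side 15 lay below -0.1 (30.0%, beside 20.0% of all named genes) and 10 between -0.1 and 0. Within 0.1 of 0, on both sides together, lay 66.0% of the members, beside 61.9% of all named genes. The keratin-associated protein (*KRTAP*) genes, hair genes taken as silent in colon cells, served as a gauge of array noise that was picked in an earlier look at these data. The 84 *KRTAP* genes ranged from -0.22 to 0.30 with an SD of 0.09 across genes, and 48 of the 50 members lay inside that range. The exceptions were *RPS15A* and *RPL7L1*, both below it. The lower and upper quartiles of all named genes, -0.07 and 0.06, also lay inside the range. The share of all named genes inside it was not computed, so the count does not set the members apart. The gauge comes from dim probe sets, whereas ribosomal protein mRNAs are among the most abundant in dividing cells, and whether it holds for bright probe sets was not tested.

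Small subunit genes supplied the lowest canonical values. *RPS15A*, a core protein of the small subunit, had a value of -0.13 in siREG4 and 0.13 in siControl, a difference of -0.25 (1.19-fold lower). *RPS26*, which lies at the mRNA exit, was at -0.10 in siREG4 and 0.10 in siControl (1.15-fold lower). *RPS6*, the ribosomal protein that S6 kinase phosphorylates downstream of mTORC1, was at -0.09 in siREG4 and 0.09 in siControl, which is 1.14-fold lower. All 3 were thus lower in siREG4. A larger distance from 0 than that of *RPS15A* or an equal one was found in 13.6% of all named genes. *RPS23*, a protein of the decoding centre, differed by -0.17, *RPS14*, whose loss from chromosome 5 underlies the anaemia of the 5q- syndrome, by -0.14, *RPS16* by -0.11 and *RPS24* by -0.09. *RPS3*, at the mRNA entry, was at -0.02.

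The other 9 of the 17 small subunit genes were higher, all by small amounts. *RPS28* was highest, with 0.06 in siREG4 and -0.06 in siControl, a difference of 0.11 (1.08-fold higher). *RPS18* (0.09), *RPS29* (0.08), *RPS9* (0.07), *RPS15* (0.06), *RPS27* (0.06), *RPS19* (0.06), *RPS7* (0.05) and *RPS21* (0.05) followed. The 17 genes had a median of 0.05 and a mean of -0.03, so that the sign of the summary depended on which was taken.

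Among the 26 large subunit genes, 12 were lower and 14 higher, with a median of 0.01. The lowest was *RPL28*, at -0.09 in siREG4 and 0.09 in siControl, a difference of -0.18. *RPL41*, which encodes a very short, basic peptide at the subunit interface, also differed by -0.18 as the mean of its probe sets. *RPL35* (-0.14) at the mouth of the polypeptide exit tunnel, *RPL9* (-0.13) and *RPL38* (-0.11) were the remaining large subunit genes below -0.1. No large subunit gene was above 0.1 (0 of 26). *RPL12*, a base protein of the stalk that recruits elongation factors, was highest, with 0.05 in siREG4 and -0.05 in siControl, a difference of 0.10. *RPL24* (0.09), *RPL11* (0.09), *RPL34* (0.08), *RPL36* (0.08), *RPL39* (0.07) and *RPL35A* (0.07) came next. *RPL29* (0.05), *RPL8* (0.05), *RPL30* (0.04), *RPL27* (0.03), *RPL6* (0.02), *RPL14* (0.01) and *RPL19* (0.01) lay between 0 and these. On the other side of 0 were *RPL32* (-0.06), *RPL22* (-0.04), *RPL17* (-0.04), *RPL18* (-0.03), *RPL26* (-0.01), *RPL10A* (-0.0072) and *RPL37A* (-0.0043).

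How far probe sets of a single gene differed gives a second view of precision. Such a comparison was possible for 4 members. The 5 probe sets of *RPL41* differed by -0.39, -0.24, -0.19, -0.06 and -0.0037, all on the lower side but 0.38 apart. The pair for *RPS18* read 0.15 and 0.03, the pair for *RPL39* 0.05 and 0.10, and the pair for *RPL19* 0.06 and -0.04, with opposite signs. Over all 651 genes with several probe sets the median distance between the lowest and the highest was 0.08, and the upper quartile was 0.19. *RPS15A*, *RPL7L1* and *RPS26*, each read by 1 probe set, were the members that lay farther from 0 than this upper quartile. Ribosomal protein genes have many processed pseudogenes with nearly the same sequence, and probes can read these copies too.

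Genes listed by a second role, by a disease or by a place in the ribosome did not stand together. *RPL11*, which with RPL5 and the 5S rRNA holds MDM2 in check when ribosome assembly fails, differed by 0.09, and *RPL5* was not analysed here. Of 10 listed genes whose proteins bind MDM2, 7 were measured, 4 lower and 3 higher, with a median of -0.01. They ran from *RPS27L* (-0.19) and *RPS14* (-0.14) through *RPS3*, *RPL26*, *RPS7* and *RPS27* to *RPL11*. Of 19 listed genes that are mutated in Diamond-Blackfan anaemia, a failure of red cell production, 14 were measured, 6 lower and 8 higher (median 0.04), from *RPS15A* (-0.25) and *RPS26* (-0.20) to *RPS28* (0.11). *RPS19*, the gene most often mutated in that disease, was at 0.06. Of 8 listed genes of the exit tunnel and its rim, 5 were measured, from *RPL35* (-0.14) to *RPL39* (0.07), with a median of -0.01. *RPL12* was the single measured gene of the 4 listed for the stalk. Each of these lists had 0 genes past 1.4-fold, where 1.67% of all named genes were lower and 1.51% higher. The medians of the lists stand beside 0.0 for all named genes.

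The paralogs were next set beside the canonical genes. Over the 7 paralogs the median was -0.11, and over the 43 canonical members it was 0.01. Of the paralogs 5 were lower, 1 was higher and *RPL3L* was at exactly 0, and of the canonical members 20 were lower and 23 higher. Of all named genes 48.7% were lower. Below -0.1 lay 4 of 7 paralogs and 11 of 43 canonical members, beside 20.0% of all named genes. Genes are not replicates, and this contrast has no test.

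*RPL7L1*, whose protein takes part in assembly of the large subunit, was the lowest paralog, with -0.13 in siREG4 and 0.13 in siControl (-0.25, 1.19-fold lower). *RPS27L*, a p53 target in other human cells, was at -0.09 in siREG4 and 0.09 in siControl, a difference of -0.19 (1.14-fold lower). Its canonical partner *RPS27*, at 0.03 in siREG4 and -0.03 in siControl, was 0.06 higher, so the paralog lay 0.25 below its partner. That was the widest gap of the 4 pairs in which both genes were measured.

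*RPL26L1* differed by -0.13 and *RPL26* by -0.01. *RPL22L1*, which can stand in for RPL22 and is raised when *RPL22* is lost, differed by -0.11 and *RPL22* by -0.04. *RPL39L*, a gene with its main activity in testis and in some tumours, was the highest of all members, with 0.07 in siREG4 and -0.07 in siControl, a difference of 0.14 (1.10-fold higher), and *RPL39* was at 0.07. In 3 pairs the paralog thus lay below its partner and in the *RPL39* pair above it. In 3 of the 4 pairs both genes had the same sign, and *RPS27* and *RPS27L* had opposite signs. The gaps of the *RPL22* pair (-0.07) and of the *RPL39* pair (0.06) were smaller than the median distance between probe sets of a gene.

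*RPL10L* (-0.0080), a testis gene, and *RPL3L* (0.0), a gene of heart and skeletal muscle, lay at the middle, and their partners *RPL10* and *RPL3* were not analysed here, nor was *RPL7*. Both deposited values of *RPL3L* were exactly 0.

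**Figure D2:**
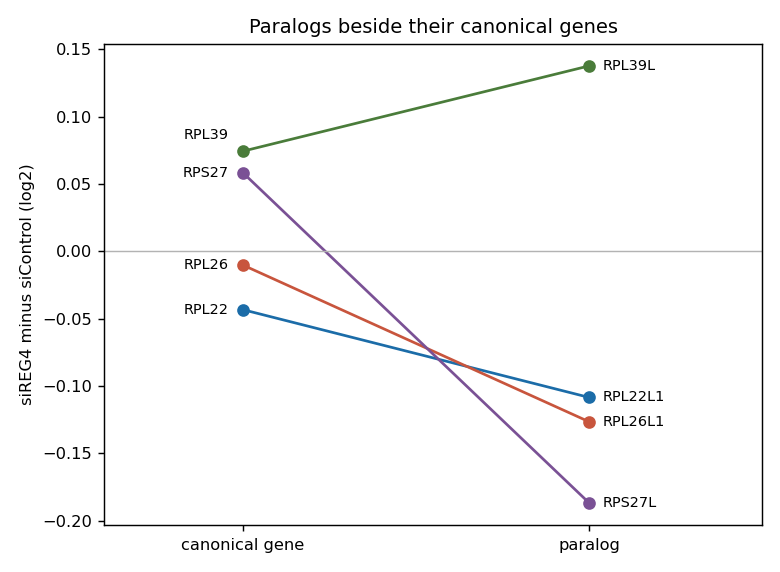
Each line joins the siREG4 minus siControl difference (log2, vertical axis) of a canonical gene (left) to that of its paralog (right), for the 4 pairs with both genes measured. RPS27L lies 0.25 below RPS27, RPL26L1 and RPL22L1 lie lower than their partners by less, and RPL39L lies above RPL39.

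The canonical genes share a feature of sequence that the symbol rule did not use. Bases around the start of transcription were taken from RefSeq (GRCh38.p14), which held a start for 45 of the 50 genes. A start was counted as an oligopyrimidine start if its first base was C and the next 4 were C or T, on the strand of the gene. Such a start was present in 28 of 40 canonical members (70.0%) and 1 of 5 paralogs (20.0%), beside 6.24% of 15843 protein-coding genes with a start in the table. RefSeq starts can be off by a few bases, so a missing match says only that the run is not at that base. Windows of 30 bases, 15 before the start and 15 from it, are given for 11 genes: the 3 lowest and the 2 highest members among those with a start in the table, and the 3 pairs in which both genes had one, to show how these paralogs differ from their partners. Capitals mark the pyrimidine run where it begins at the start with C.
RPL7L1: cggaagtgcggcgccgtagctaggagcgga
RPS26: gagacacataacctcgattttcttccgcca
RPS6: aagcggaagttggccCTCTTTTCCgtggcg
RPL12: ccgcgcgatttccggCCTCTCggctttcgg
RPS28: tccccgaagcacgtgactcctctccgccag
RPS27: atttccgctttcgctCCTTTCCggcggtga
RPS27L: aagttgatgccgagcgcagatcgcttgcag
RPL26: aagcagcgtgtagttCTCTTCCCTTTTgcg
RPL26L1: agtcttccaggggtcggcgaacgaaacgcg
RPL22: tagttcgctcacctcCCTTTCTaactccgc
RPL22L1: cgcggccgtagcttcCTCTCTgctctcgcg

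The windows lie at chr6:42879601-42879630 (+ strand) for *RPL7L1*, chr12:56041903-56041932 (+ strand) for *RPS26*, chr9:19380222-19380251 (- strand) for *RPS6*, chr9:127451392-127451421 (- strand) for *RPL12* and chr19:8321481-8321510 (+ strand) for *RPS28*. Those of the pairs lie at chr1:153990747-153990776 (+ strand) for *RPS27*, chr15:63157463-63157492 (- strand) for *RPS27L*, chr17:8383179-8383208 (- strand) for *RPL26* and chr5:172958714-172958743 (+ strand) for *RPL26L1*, the first of its 2 starts. For *RPL22* the window is chr1:6199581-6199610 (- strand) and for *RPL22L1* chr3:170870181-170870210 (- strand). All hold the upstream edge of the gene and the first bases of its transcript. Of the lowest and highest members shown, *RPS6* and *RPL12* have the run at the listed start, and *RPL7L1*, *RPS26* and *RPS28* do not. *RPL22L1* was the 1 paralog with the run. *RPS27L* and *RPL26L1*, whose partners begin with runs of 7 and 12 pyrimidines, have no run at the listed start.

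The differences of canonical genes with and without the oligopyrimidine start overlapped, and the contrast between them was not tested. The 28 with it had a median of 0.0041 and ranged from *RPS6* (-0.19) to *RPL12* (0.10), 14 lower and 14 higher, with 8 below -0.1 and a lower quartile of -0.11. The 12 without it had a median of 0.02 and ranged from *RPS26* (-0.20) to *RPS28* (0.11), 5 lower and 7 higher, with 2 below -0.1 and a lower quartile of -0.04. Thus both the lowest and the highest of these 40 genes had no run at the listed start base. In *RPS28* a pyrimidine run that opens with C begins at the next base, so the split depends on the listed starts. Other motifs were searched in 300 bases, 250 before and 50 from the start, on both strands. CCGGAAG, a sequence that ETS factors such as GABPA bind, was found in 11 of the 40 canonical members (27.5%), beside 16.5% of protein-coding genes. It was also found in 2 of 5 paralogs (40.0%) and in 29 of 65 mitochondrial ribosomal protein genes (44.6%), so it is not particular to the members. CACGTG, the E-box of MYC, was found in 3 of the 40 (7.5%), beside 10.9% of protein-coding genes. The median was 0.01 in the 11 genes with CCGGAAG and 0.01 in the 29 without. A match is a description of the letters and not a bound site.

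Mitochondrial ribosomal proteins, which build the separate ribosome inside mitochondria, are the group most like the members by function. Of 73 measured genes 60 were lower in siREG4 (82.2%, beside 48.7% of all named genes) and 11 higher. The median of the 73 genes was -0.17, beside -0.0021 for the cytosolic proteins and 0.0 for all named genes. Of these, 3 passed 1.4-fold and were lower, *MRPL40* (-0.53), *MRPL2* (-0.51) and *MRPL14* (-0.49), and 0 were higher, beside 1.67% lower and 1.51% higher among all named genes. The highest were *MRPL55* (0.26) and *MRPL45* (0.31). Of the 73 genes, 23 (31.5%) lay below *RPS15A*, the lowest cytosolic member. Within 0.1 of 0 lay 66.0% of the cytosolic members, 31.5% of the mitochondrial ribosomal proteins and 61.9% of all named genes. With 1 array per group, the difference between the 2 kinds of ribosome was not tested.

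**Figure D3:**
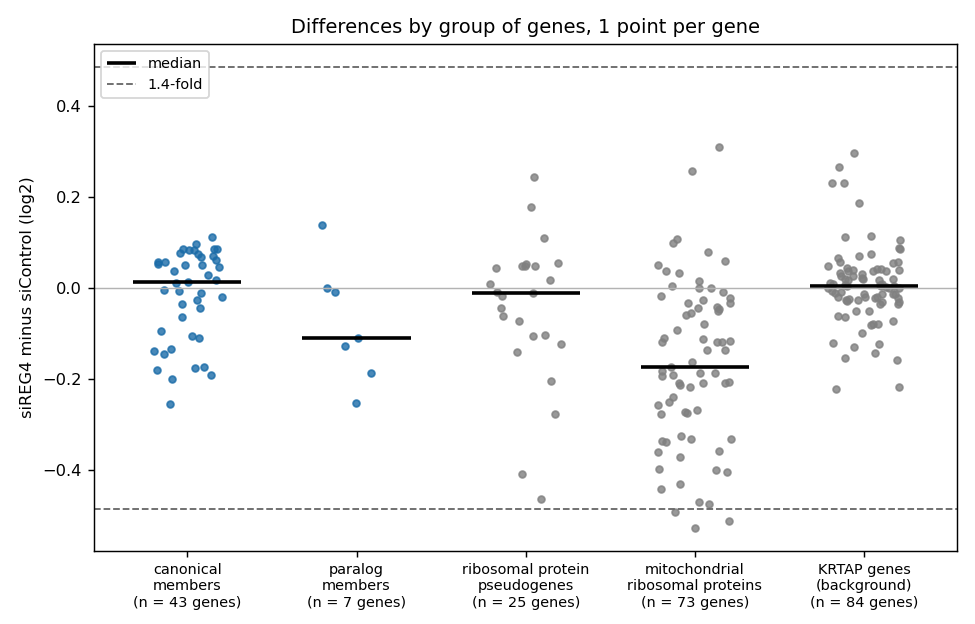
Each point is the siREG4 minus siControl difference (log2, vertical axis) of 1 gene in 5 groups (horizontal axis, random sideways spread), black bars are medians and dashed lines mark 1.4-fold. The canonical members have a median of 0.01 and the paralogs of -0.11, whereas the mitochondrial ribosomal proteins have a median of -0.17 and reach past 1.4-fold lower.

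Some ribosomal proteins are encoded by genes that the symbol rule leaves out. *FAU*, which encodes RPS30 fused to a ubiquitin-like protein, was at 0.17 in siREG4 and -0.17 in siControl, a difference of 0.35 and so higher than any of the 50 members. *RPL36AL*, a second gene for RPL36A, was at -0.11 in siREG4 and 0.11 in siControl, a difference of -0.22. Neither passed 1.4-fold. *RACK1* of the small subunit was not analysed here. The RPS6K prefix was carried by *RPS6KL1* (-0.14), a relative of the S6 kinases, and by *RPS6KA2-IT1* (0.06), a non-coding transcript, so the S6 kinases themselves were not analysed here.

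Other parts of the ribosomal protein pathway covered wider ranges than the proteins themselves. Of 37 listed genes around mTORC1 and MYC, which control the output of ribosomal protein genes, 30 were measured, 15 lower and 15 higher. The list mixes activators, inhibitors and targets, so its counts and median give no direction of signalling. *MTOR* itself differed by 0.19 and *MYC* by -0.19. The median of the 30 was -0.00036, beside 0.0 for all named genes. Of the 30, 26.7% lay below -0.1 and 40.0% above 0.1, beside 20.0% and 18.1% of all named genes. Past 1.4-fold 2 were higher, *SESN2* (1.12) and *DDIT4* (0.70), both inhibitors of mTORC1, and 0 were lower, beside 1.51% and 1.67% of all named genes. The lowest were *RRAGA* (-0.42), a Rag GTPase that brings mTORC1 to the lysosome, and *EIF4EBP1* (-0.36), a translation repressor that mTORC1 phosphorylates.

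Of 23 listed chaperones of ribosomal proteins and factors of subunit maturation, 21 were measured, 7 lower and 14 higher. The median was 0.09, beside 0.0 for all named genes. Of the 21, 28.6% lay below -0.1 and 47.6% above 0.1, beside 20.0% and 18.1% of all named genes. *RIOK3*, an atypical kinase that binds the small subunit, was the 1 gene past 1.4-fold, higher by 0.73, where 1.51% of all named genes passed it on the higher side. It was followed by *ZNF622* (0.38), a factor on late large subunits. *NACA* (-0.44), a chaperone of nascent chains, and *SBDS* (-0.37), which helps release EIF6 from the large subunit, were lowest. Of 26 listed symbols of other mRNAs with an oligopyrimidine tract, 13 were measured. Of these, 4 were lower and 9 higher (median 0.04), with 30.8% below -0.1 and 46.2% above 0.1. They ran from *NACA*, which is in both lists, and *IMPDH2* (-0.35), an enzyme of GTP synthesis, to the elongation factor *EEF2* (0.18) and *FAU*, and 0 passed 1.4-fold, where 1.67% of all named genes were lower and 1.51% higher. *EEF1A1*, the most abundant elongation factor, was at 0.02.

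**Figure D4:**
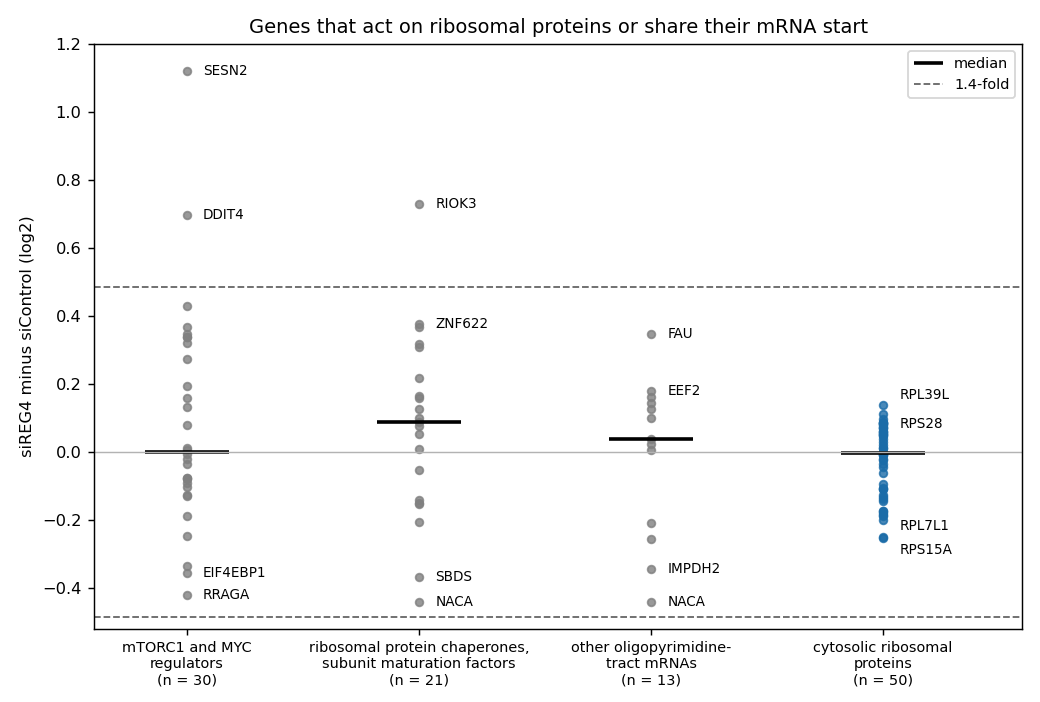
Each point is the siREG4 minus siControl difference (log2, vertical axis) of 1 gene in 3 lists and in the 50 members (horizontal axis), with the 2 lowest and the 2 highest of each named, medians as black bars and 1.4-fold as dashed lines. SESN2, DDIT4 and RIOK3 lie above 1.4-fold, while the 50 members stay between -0.25 and 0.14. FAU, a ribosomal protein gene outside the symbol rule, is shown in the oligopyrimidine list.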

How the data were processed

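RNA of HT29 cells was prepared by the GeneChip WT PLUS protocol for Affymetrix Human Gene 2.0 ST arrays, which were evaluated in GeneSpring. The authors deposited 1 table of log2 values for 44629 probe sets. The log base, taken as 2, the background correction, the summarization and the normalization were not given in the sources used here. Values are centred per probe set: the 2 columns sum to 0 within 1e-06 and both column medians are 0.0. An annotation of the platform named 15835 probe sets with a single symbol, and the other 28794 were not used by name.

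The difference was the siREG4 minus the siControl value, averaged over the probe sets of a gene. Counts past 1.4-fold and medians were set beside those of all 14812 named genes. With 1 array per group, precision is limited by the number of arrays, and neither p-values nor errors were computed. Members, lists and the 0.1 step were chosen with earlier results of these data known. Named were all paralogs, the 10 lowest and 10 highest canonical members, members with several probe sets, members of the role lists, and the 2 lowest, 2 highest and all genes past 1.4-fold of each pathway list. The remaining canonical members and the mitochondrial, *FAU*, *RPL36AL*, *EEF1A1* and RPS6K values were added to account for every member. Chromosome starts came from RefSeq. The steps were checked on simulated data. Python 3.11.15, numpy 2.4.6, pandas 2.3.3 and matplotlib 3.10.9 were used.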

Additional observations from a re-analysis of the deposited data

How the results depend on the processing

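Quantile normalization of the arrays moved no member by more than 0.0080, and median centring could move nothing since both medians were 0.0. Under these, the first probe set of a gene and the median of its probe sets, the 108 values of members so recomputed all moved by less than the SD of the *KRTAP* genes. The counts of 0 members past 1.4-fold were also 0 at 2-fold, per probe set, among canonical members alone, without the member at exactly 0, and with *FAU* and *RPL36AL* added (*RACK1* could not be). With a threshold of 0.1 in place of 1.4-fold, 15 members were lower and 2 higher, which follows from the looser threshold. The median of the members was -0.0019 after quantile normalization, 0.01 for canonical members and -0.02 as a mean. The medians of the paralogs (-0.11) and of the mitochondrial ribosomal proteins (-0.17 to -0.16) kept their sign. The median of the mTORC1 and MYC list, at -0.00036, was 4.1e-05 after quantile normalization and 0.08 as a mean, and that of the oligopyrimidine list was -0.0098 as a mean. The planned counts of small nucleolar RNAs inside ribosomal protein genes could not be run, since 0 of them had a probe set annotated with its symbol alone. No paired analysis was possible because each group held 1 array.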

Other observations

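Copies of ribosomal protein genes that are annotated as pseudogenes covered a wider range than the genes themselves. The 25 named pseudogenes had a median of -0.01, 14 lower and 11 higher, and 0 passed 1.4-fold, beside a median of 0.0 and shares of 1.67% lower and 1.51% higher among all named genes. *RPL29P2* differed by -0.46 while *RPL29* differed by 0.05, and *RPL23AP82*, with 3 probe sets, by -0.41, with *RPL23A* not analysed here. *RPL13AP6* (0.24) and *RPL13P5* (0.18) were the highest. Of the 6 pseudogenes whose parent gene was measured, *RPS26P11* (0.0084) lay above *RPS26* (-0.20), *RPS15AP10* (-0.12) above *RPS15A* (-0.25) and *RPL32P3* (0.11) above *RPL32* (-0.06). *RPL19P12* (-0.20) lay below *RPL19* (0.01), and *RPS7P5* (0.02) lay 0.04 below *RPS7*. These genes were chosen after their values were seen. Parent and copy can share probes, and the part of that in these values was not tested.

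The members measured were not an even draw of the ribosome. Of 77 canonical genes whose symbols fit the rule, 43 had a probe set annotated with that symbol alone. Probe sets annotated with several symbols were left out, and whether the other 34 genes have such probe sets was not analysed here. By RefSeq positions, 29 of the 77 hold at least 1 small nucleolar RNA within their bounds, an RNA that guides the modification of rRNA and is often cut from introns of ribosomal protein genes. Such genes made up 7 of the 43 measured genes (16.3%) and 22 of the 34 that were not analysed here (64.7%). The values above thus come mostly from ribosomal protein genes without a small nucleolar RNA, and *RPL3*, *RPL4*, *RPL5*, *RPL13A* and *RPSA* are among those not covered.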
